A study of Mus musculus with 22 samples.

Results

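The 45 genes described here are mouse targets of the hypoxia-inducible factors (HIF) and enzymes of glycolysis, among 47729 gene identifiers counted in each library. They were chosen as a list of symbols, each matched to 1 identifier through GENCODE M21. The list was drawn up with a result of these same libraries known: Ndufa4l2, Bhlhe40, Aldoc and Egln3 are lower with the compound GSK-3484862 in some lines, and the question put was whether the other genes of the programme are lower too. These 4 genes, and Loxl2, which was already known as having a large fall, are therefore given as values with no test of that response. The other 40 were tested. Adm is left out of their counts in the treated set, except where it is said to be included, for a reason given with the filter on low counts.

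Hypoxia-inducible factors are transcription factors with an oxygen-sensitive alpha subunit (encoded by Hif1a or Epas1) and a stable partner, ARNT. When oxygen is available, prolyl hydroxylases (encoded by Egln1 and Egln3, among others) mark the alpha subunit for binding by VHL and degradation. When oxygen is scarce the subunit is stable, and the pair raises transcription of genes for glucose uptake, glycolysis, lactate export, mitophagy, collagen modification, pH control and blood vessel growth, as well as of Egln3 itself. Mouse embryonic stem (ES) cells are known for high glycolytic activity also in ordinary culture.

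All cells were mouse ES cells grown in serum with leukaemia inhibitory factor, and oxygen was not varied in any group that the labels describe. The study concerns Dux, a transcription factor gene of the 2-cell embryo that lies in a duplicated cluster. The untreated set holds 3 libraries of E14, 3 of CRISPR-Cas9 knockout clones called Dux-KO (numbers 15, 22 and 52) and 4 of CRISPR-Cas9 clones called Dux n=1 (numbers 17, 22, 31 and 40), a name read here as 1 remaining copy. In the treated set, WT cells, a knockout line titled KO22 and an n=1 line titled N22 each gave 2 libraries with the solvent DMSO and 2 with GSK-3484862, for 3 days. GSK-3484862 is described in the labels as a degrader of DNMT1, the enzyme that keeps up DNA methylation. Its dose is given as 1 uM in one text of the series and as 2 uM in another. KO22 and N22 are read as 1 clone each, so genotype and clone cannot be told apart in the treated set, and whether WT and E14 are the same cells is not given in the sources used here. The titles of N22 and KO22 carry the same number as Dux n=1 clone 22 and Dux-KO clone 22, and whether these are the same clones is not given either. Dux n=1 clone 22 is one of a pair of clones that stood apart in the untreated set, so N22 may be such a clone. No label says that the libraries of a group came from separate cultures, so the p-values reflect the spread among the libraries at hand, whose source may be technical.

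Libraries held 15803194 to 19427794 counts. Duxf3, the annotated Dux copy, had 0 counts in all 4 KO22 libraries, 18 and 19 in WT with GSK-3484862, 11 and 13 in N22 with GSK-3484862, and 0 to 5 elsewhere, too few in the untreated set to check the labels there. All 9 ES cell markers on the list, among them Pou5f1, Sox2 and Nanog, had counts in every group. Of 8 markers of fibroblasts, which are often used as feeder cells, 3 to 7 had counts in a group, with a summed level of 9.21 to 53.7 CPM (the counts-per-million of a library's total). Postn and Twist2 were at 0 in every group but KO22 with GSK-3484862 and, for Postn, N22 with GSK-3484862. In bulk libraries, fewer cells of a kind and less RNA per cell cannot be told apart. Mitochondrial genes took 1.78% and 1.66% of the counts in WT with DMSO, 2.17% and 2.39% in N22 and 2.28% and 2.36% in KO22, 2.66% to 3.20% with GSK-3484862 (6 libraries), 2.75% to 2.99% in E14 and 2.03% to 2.60% in the 7 edited untreated clones. This share moves with the compound in each line, and its part in the responses given next was not tested. It also differs between WT and the other lines with DMSO, and its part in the gene differences between lines was not tested.

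The DNA sequence that HIF binds has the core ACGTG or GCGTG. The 250 bases before the transcription start were read from RefSeq promoter sequences (GRCm38.p6), which held 38 of the 45 genes by symbol, in 54 windows, since a gene can have several starts and their windows can overlap. Epas1, Slc2a3, Loxl2, Bhlhe40, Ndufa4l2, Plod2 and Bnip3l were the others. A core on either strand (read as CACGT or as CACGC on the other) stood in 41 of 54 windows (75.9%) and in 38.6% of all 32851 mouse windows. At least 2 matches stood in 46.3% of the windows of these genes and in 16.7% of all, where the palindrome CACGTG counts as 2. The windows of these genes also held more CG dinucleotides, a median of 16.5 against 6, and each form of the core contains CG, so the shares describe base composition as well as a motif. At least 1 core was found for 33 of 38 genes. A gene with several windows has more chances of a match, and no share by gene was taken over all genes. This count therefore cannot be set beside the 38.6% of windows.

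The windows of 6 genes are printed because the results turn on their levels, 5′ to 3′ in the direction of the gene, with each core in capitals. Aldoc (chr11:78322823-78323072, plus strand) and Egln3 (chr12:54203875-54204124, minus strand) belong to the genes that defined the list. Bnip3 (chr7:138909507-138909756, minus strand), Slc16a3 (chr11:120948817-120949066, plus strand) and Pgk1 (chrX:106186850-106187099, plus strand) are genes with 2 or more matches, and Tpi1 (chr6:124814159-124814408, minus strand) has none.
Aldoc: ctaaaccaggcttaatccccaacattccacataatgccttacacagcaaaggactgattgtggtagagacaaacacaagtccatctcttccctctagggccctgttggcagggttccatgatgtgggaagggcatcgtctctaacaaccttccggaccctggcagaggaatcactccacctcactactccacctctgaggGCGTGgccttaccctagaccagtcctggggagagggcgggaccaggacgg
Egln3: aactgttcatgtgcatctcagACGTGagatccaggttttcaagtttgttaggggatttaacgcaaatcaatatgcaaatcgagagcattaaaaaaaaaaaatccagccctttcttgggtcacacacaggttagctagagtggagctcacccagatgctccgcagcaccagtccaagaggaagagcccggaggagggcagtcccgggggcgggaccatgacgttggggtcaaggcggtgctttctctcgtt
Bnip3: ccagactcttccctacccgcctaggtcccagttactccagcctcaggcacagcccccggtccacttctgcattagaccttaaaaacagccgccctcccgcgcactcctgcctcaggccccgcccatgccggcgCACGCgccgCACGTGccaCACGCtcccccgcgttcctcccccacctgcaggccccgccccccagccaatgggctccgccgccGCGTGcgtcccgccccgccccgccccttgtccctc
Slc16a3: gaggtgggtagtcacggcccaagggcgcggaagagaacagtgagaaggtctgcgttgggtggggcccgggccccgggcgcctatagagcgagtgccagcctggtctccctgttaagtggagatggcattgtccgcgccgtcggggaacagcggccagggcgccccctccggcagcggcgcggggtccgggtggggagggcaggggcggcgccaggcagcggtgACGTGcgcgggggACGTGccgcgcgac
Pgk1: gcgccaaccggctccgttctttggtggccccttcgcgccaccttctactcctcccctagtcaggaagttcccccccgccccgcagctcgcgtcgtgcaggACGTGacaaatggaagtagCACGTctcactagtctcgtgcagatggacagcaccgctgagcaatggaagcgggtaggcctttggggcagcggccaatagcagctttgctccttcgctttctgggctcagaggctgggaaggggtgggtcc
Tpi1: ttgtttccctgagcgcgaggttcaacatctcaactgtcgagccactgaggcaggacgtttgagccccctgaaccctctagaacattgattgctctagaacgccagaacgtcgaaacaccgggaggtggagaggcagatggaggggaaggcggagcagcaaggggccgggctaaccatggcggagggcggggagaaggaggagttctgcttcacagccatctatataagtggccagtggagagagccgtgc
In Bnip3 the matches lie 117, 108, 107, 99 and 35 bases before the start, the pair at 108 and 107 being CACGTG. In Pgk1 they lie 150 and 131 bases before it and in Slc16a3 27 and 14. A match is a description of letters and not a site shown to be bound.

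Levels were compared between genes per exon length, as transcripts-per-million (TPM). In WT with DMSO the glycolytic enzymes led: Pkm had a mean of 5622 TPM, Pgam1 1904, Pgk1 1639, Ldha 1474 and Aldoa 1451. The glucose transporter Slc2a1 followed at 713.5 TPM. The regulators were lower, with Egln3 at 68.7 TPM, Hif1a at 39.2, Egln1 at 32.8 and Epas1 at 18.6 TPM. The lowest were the carbonic anhydrases Car9 at 2.40 and Car12 at 1.88 TPM and the peptide hormone precursor Adm at 1.36 TPM. Values for Pkm, Pgam1, Pgk1, Ldha, Aldoa and Tpi1 are uncertain, because the authors' counting left out reads that map to several places and such genes have near-identical pseudogene copies.

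**Figure D1:**
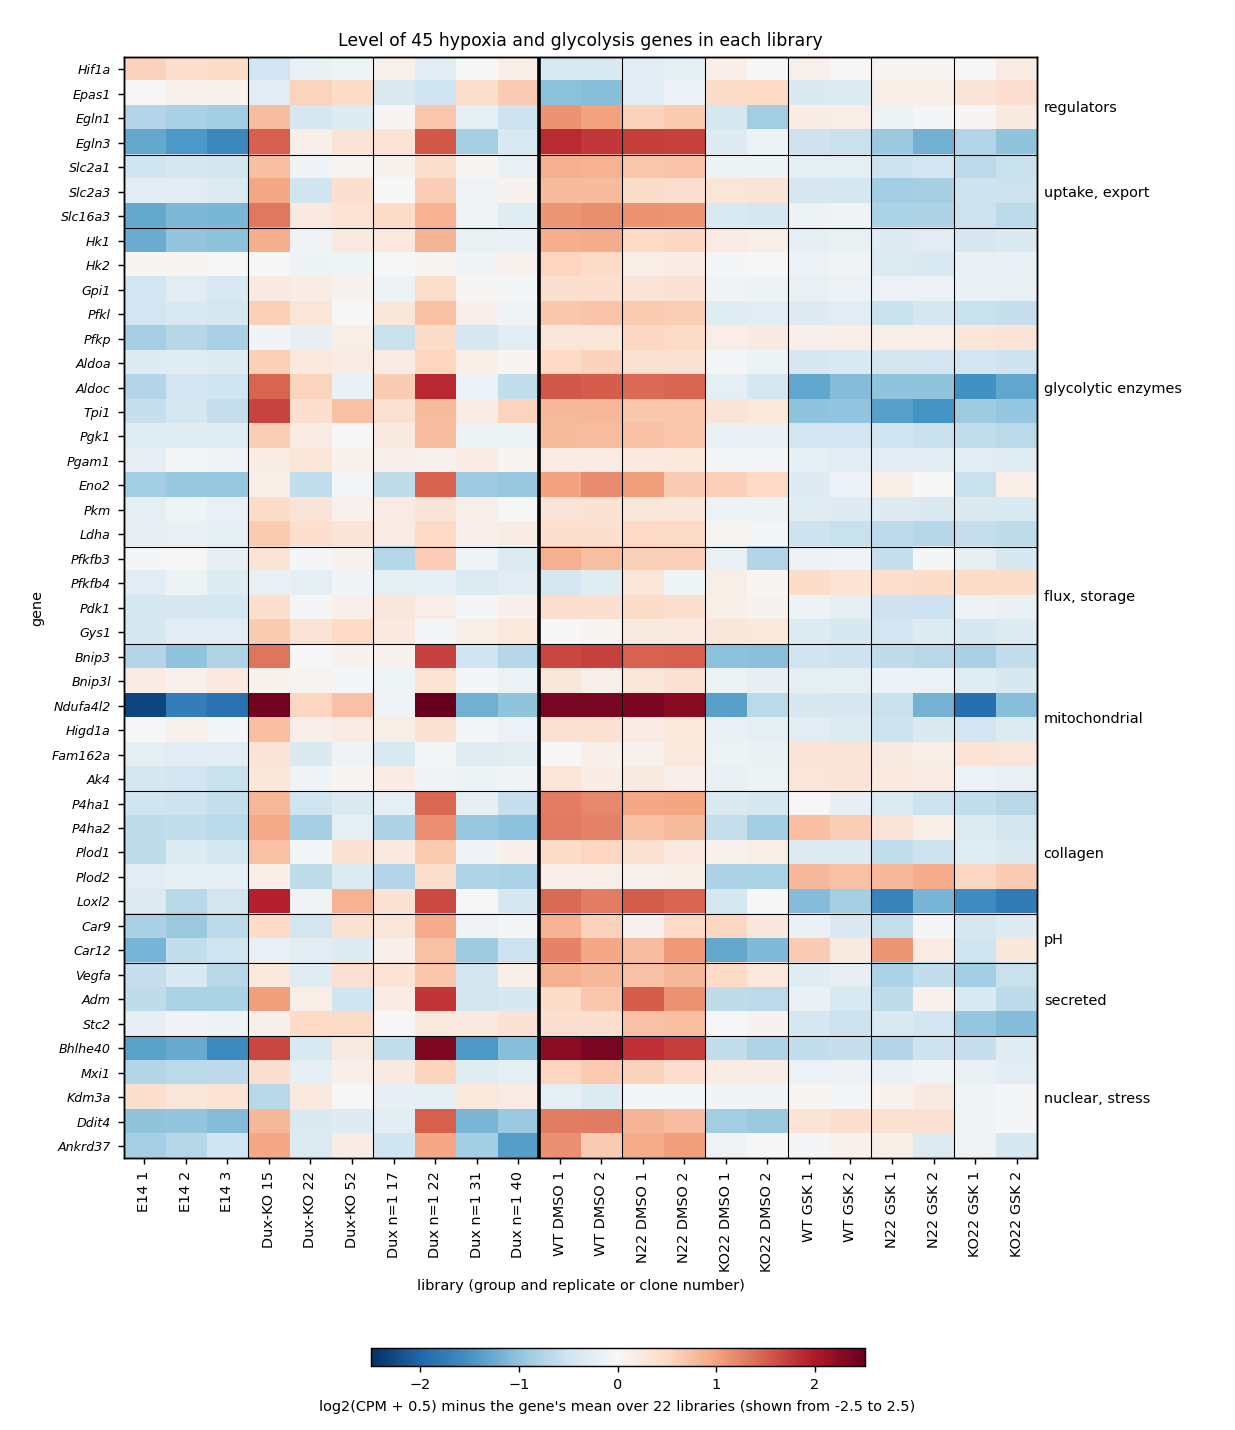
Level of each of the 45 genes (rows, grouped by role) in each of the 22 libraries (columns), as log2(CPM + 0.5) minus the gene's mean over all 22. Red is above and blue below the mean, and the thick line divides the untreated set (left) from the treated set (right). Most rows are red in WT and N22 with DMSO and pale or blue in KO22 with DMSO and in all GSK-3484862 libraries.

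All 45 genes passed the filter on low counts in the treated set. Only Adm was under 10 counts in every GSK-3484862 library, so that it passed through its DMSO libraries alone, and it is described by its counts, without a test of the treated groups, which leaves 39 genes. A gene was called at an adjusted p below 0.05 (edgeR quasi-likelihood test, Benjamini-Hochberg over all 16641 genes tested), and "fell" and "rose" are used of called genes only. Differences are log2 with their standard error (SE), from 2 libraries a group with 1 spread shared by the 6 groups.

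In WT, 32 of the 39 tested genes fell with GSK-3484862, 6 rose and Ak4 was not called, where 28.1% of all genes tested fell and 28.7% rose. Of the 32, 15 fell by at least 2-fold, against 4.91% of all genes, and none rose that much, against 11.9%. In N22, 30 fell and 4 rose, against 26.0% and 26.9% of all genes, and 13 fell by at least 2-fold and none rose as much, against 3.77% and 11.3%. In KO22, 23 fell and 7 rose, against 21.2% and 24.8% of all genes, with 4 falls and 2 rises (Car12 and Plod2) of at least 2-fold, against 2.48% and 10.2%. The median log2 difference over the 39 genes was -0.895 in WT, -0.75 in N22 and -0.26 in KO22, beside medians of 0.003, 0.002 and 0.004 over all genes tested.

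A fall in all 3 lines was seen for 22 of the 39, where 12.4% of all genes tested fell in all 3. They include the glucose transporters Slc2a1 and Slc2a3, the lactate exporter Slc16a3, most glycolytic enzymes, the growth factor gene Vegfa and the secreted glycoprotein gene Stc2. Plod2 alone rose in all 3, as 14.4% of all genes did. In both WT and N22, 30 genes fell (20.3% of all genes). Of these, Egln1, Pfkp, Bnip3 and Ddit4 rose in KO22 (0.679% of all genes fell in WT and N22 and rose in KO22), and Gpi1, Pfkfb3, P4ha2 and Ankrd37 were not called there (7.22% of all genes). These counts use 3 comparisons that share no library. Across the 39 genes and Adm, the WT and N22 differences had a Pearson r of 0.91, WT and KO22 had 0.31 and N22 and KO22 had 0.35. These are descriptions across genes, which are not independent and share each library's depth and composition.

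**Figure D2:**
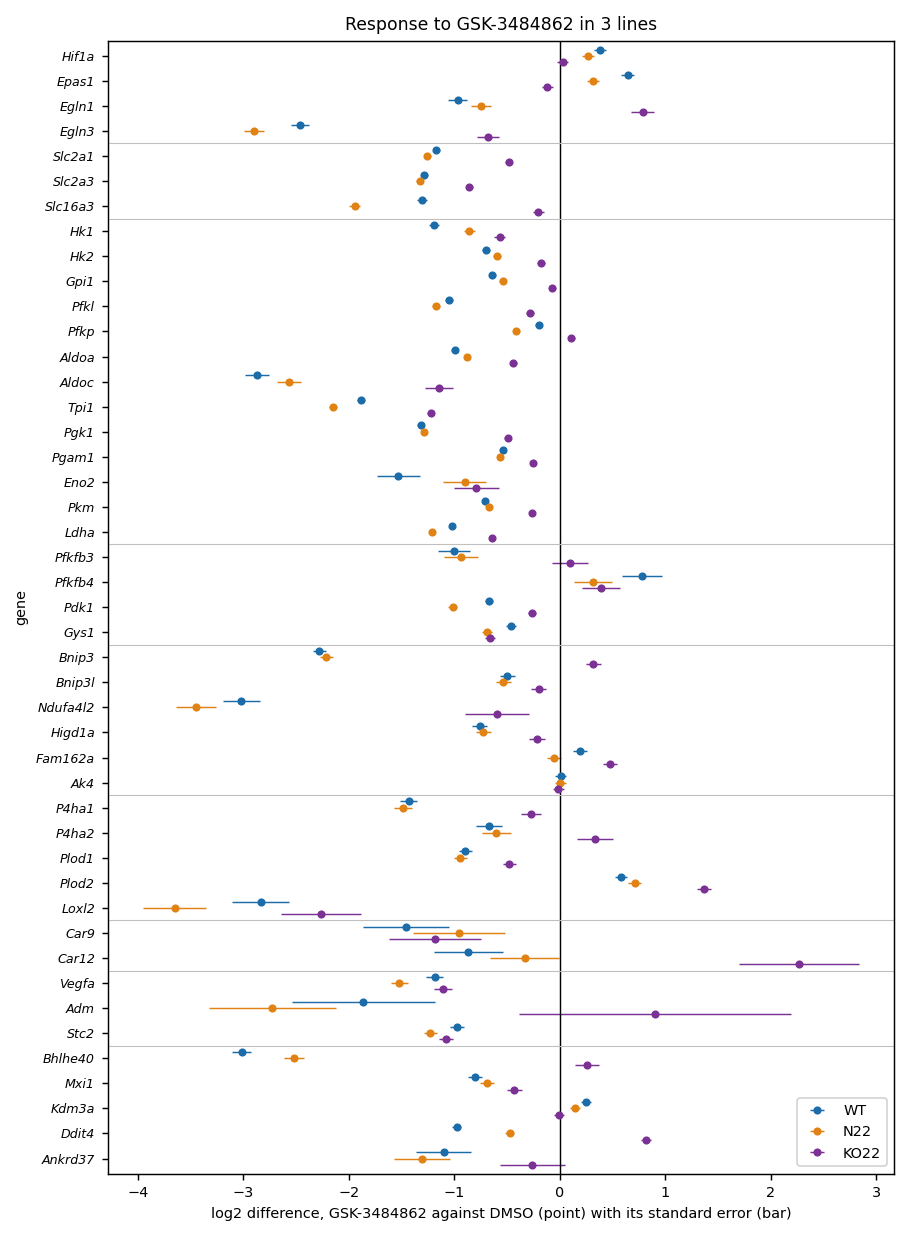
Log2 difference between GSK-3484862 and DMSO (x axis) for each of the 45 genes (y axis, grouped by role), with its standard error, in WT (blue), N22 (orange) and KO22 (purple). Blue and orange points lie together to the left of 0 for most genes, while purple points lie nearer to 0, and those of Egln1, Bnip3, Ddit4 and Car12 lie to the right of it.

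Among the regulators, the alpha subunit genes did not fall in any line. Hif1a (ENSMUSG00000021109, chr12:73901375-73947530) stood at 81.5 and 81.6 CPM in WT, 88.8 and 89.7 in N22 and 116 and 105 in KO22 with DMSO, and 115 and 107, 111 and 111, and 106 and 121 with GSK-3484862 in the same order. The DMSO libraries of WT and N22 lie below all 8 others. It rose in WT by 0.38 ± 0.055 (adjusted p = 1.36e-08) and in N22 by 0.27 ± 0.054 (adjusted p = 2.76e-05), while the KO22 difference was 0.026 ± 0.053 (adjusted p = 0.72). Epas1, which encodes HIF-2 alpha, was measured at 35.4 and 34.3 CPM in WT, 60.9 and 65.7 in N22 and 99.98 and 103 in KO22 with DMSO, and 56.5 and 57.5, 80.5 and 82.1, and 91.5 and 97.2 with GSK-3484862 in the same order. Its WT pairs do not overlap, and it rose by 0.65 ± 0.061 in WT (adjusted p = 1.72e-14) and by 0.31 ± 0.057 in N22 (adjusted p = 3.11e-06). The KO22 difference of -0.12 ± 0.054 was not called (adjusted p = 0.0692). These are RNA levels, and the alpha subunits are regulated chiefly as proteins, which were not measured.

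The prolyl hydroxylase genes went the other way in WT and N22. Egln3 (ENSMUSG00000035105, chr12:54178981-54203860) was at 66.6 and 62.4 CPM in WT, 60.7 and 60.0 in N22 and 14.3 and 16.4 in KO22 with DMSO, and 12.4 and 12.1, 9.25 and 7.52, and 10.6 and 8.76 with GSK-3484862 in the same order. Its 4 DMSO libraries of WT and N22 stand apart above the other 8, and the differences were -2.46 in WT, -2.90 in N22 and -0.68 in KO22, with no test. Egln1, whose product is the main oxygen sensor, fell by 0.97 in WT and by 0.75 in N22 and rose by 0.79 ± 0.11 in KO22 (adjusted p = 7.4e-09).

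The 3 transporters fell in all lines, as 12.4% of all genes tested did. They fell by at least 2-fold in WT and N22, against 4.91% and 3.77% of all genes. Slc16a3, the lactate exporter MCT4 (ENSMUSG00000025161, chr11:120948480-120960868), had 212 and 221 CPM in WT, 215 and 212 in N22 and 76.3 and 72.7 in KO22 with DMSO, and 89.9 and 92.9, 56.8 and 57.9, and 67.6 and 62.6 with GSK-3484862 in the same order. The DMSO libraries of WT and N22 are again the 4 highest. It fell by 1.30 ± 0.05 in WT (adjusted p = 1.15e-34), by 1.94 ± 0.05 in N22 (adjusted p = 1.94e-43) and by 0.20 ± 0.05 in KO22 (adjusted p = 0.000689). Slc2a3, the glucose transporter GLUT3, had 1123 and 1122 CPM in WT, 891 and 872 in N22 and 803 and 813 in KO22 with DMSO, and 485 and 478, 358 and 367, and 452 and 447 with GSK-3484862 in the same order. No GSK-3484862 library reached a DMSO library of any line, and the differences were -1.28 ± 0.03, -1.33 ± 0.031 and -0.86 ± 0.03 in WT, N22 and KO22 (largest adjusted p = 2.19e-35). For Slc2a1, or GLUT1, the differences were -1.17, -1.25 and -0.48.

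All 12 tested glycolytic enzymes fell in WT and in N22, and 10 of 12 fell in KO22, where Pfkp rose by 0.11 and Gpi1 was not called. Of all genes tested, 28.1%, 26.0% and 21.2% fell in WT, N22 and KO22. Their median difference was -1.01 in WT, -0.87 in N22 and -0.36 in KO22. Tpi1, triosephosphate isomerase (ENSMUSG00000023456, chr6:124810586-124814296), changed most of the 12. It had 640.2 and 647 CPM in WT, 578 and 585 in N22 and 454 and 438 in KO22 with DMSO, and 180.5 and 183, 142 and 129, and 197 and 188 with GSK-3484862 in the same order. Every GSK-3484862 library lies below every DMSO library. The falls were 1.89 ± 0.04 in WT, 2.15 ± 0.04 in N22 and 1.22 ± 0.04 in KO22 (largest adjusted p = 4e-39). Pgk1, phosphoglycerate kinase, had 1302 and 1295 CPM in WT, 1250 and 1228 in N22 and 675 and 672 in KO22 with DMSO, and 544 and 543, 536 and 514, and 491 and 473 with GSK-3484862 in the same order. With DMSO, KO22 lay nearer to WT with GSK-3484862 than to WT with DMSO, and Pgk1 fell by 1.32 in WT, by 1.29 in N22 and by 0.49 in KO22.

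Ldha, which makes lactate, had 1546 and 1557 CPM in WT, 1631 and 1620 in N22 and 1209 and 1143 in KO22 with DMSO, and 804 and 793, 740.4 and 709.7, and 773 and 744 with GSK-3484862 in the same order. It fell by 1.02 in WT, by 1.21 in N22 and by 0.64 in KO22. Aldoa, an aldolase gene, had 1866 and 1985 CPM in WT, 1735 and 1697 in N22 and 1308 and 1213 in KO22 with DMSO, and 999 and 1017, 969 and 960.4, and 949.9 and 924 with GSK-3484862 in the same order, and fell by 1.00, 0.88 and 0.44 in WT, N22 and KO22. The DMSO and GSK-3484862 libraries of Ldha and Aldoa do not overlap in any line. Hk1, a hexokinase that starts glycolysis, had 172 and 174 CPM in WT, 129 and 131 in N22 and 105 and 101 in KO22 with DMSO, and 78.2 and 80.2, 73.2 and 75.5, and 68.1 and 71.2 with GSK-3484862 in the same order, and fell by 1.19, 0.86 and 0.57 in the same order.

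Aldoc, another aldolase gene (ENSMUSG00000017390, chr11:78322968-78327781), was at 44.7 and 43.3 CPM in WT, 40.8 and 41.8 in N22 and 12.6 and 10.9 in KO22 with DMSO, and 5.77 and 6.79, 7.22 and 7.19, and 4.93 and 5.77 with GSK-3484862 in the same order. It is among the 5 genes without a test, and its differences were -2.87 in WT, -2.57 in N22 and -1.14 in KO22. Eno2, an enolase best known from neurons, was low, at 7.87 and 8.90 CPM in WT, 8.08 and 5.96 in N22 and 5.79 and 5.38 in KO22 with DMSO, and 2.80 and 3.26, 4.12 and 3.65, and 2.33 and 4.14 with GSK-3484862 in the same order. It fell by 1.53 ± 0.20 in WT (adjusted p = 1.93e-09), by 0.90 ± 0.20 in N22 (adjusted p = 0.000127) and by 0.79 ± 0.21 in KO22 (adjusted p = 0.00147), the last not called without KO22 GSK-3484862 replicate 1 (adjusted p = 0.152). Of the others, Pfkl fell by 1.05, 1.17 and 0.28 in WT, N22 and KO22, and Pkm, Hk2, Gpi1, Pgam1 and Pfkp had WT differences between -0.70 and -0.20.

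Of the 4 genes that steer glycolytic flux or storage, Pdk1 and Gys1 fell in all lines, as 12.4% of all genes did. Pdk1, the kinase that keeps pyruvate out of the mitochondrial cycle, had 306 and 303 CPM in WT, 310.2 and 299.5 in N22 and 249 and 239 in KO22 with DMSO, and 208 and 191, 157 and 155, and 208 and 202 with GSK-3484862 in the same order. It fell by 0.67 in WT, 1.01 in N22 and 0.26 in KO22. Gys1, glycogen synthase, had 135 and 143 CPM in WT, 158 and 162 in N22 and 166 and 163 in KO22 with DMSO, and 107 and 104, 97.7 and 107, and 103 and 107 with GSK-3484862 in the same order, and fell by 0.46, 0.69 and 0.66 in that order. Its DMSO and GSK-3484862 libraries do not overlap in any line. The paralogues Pfkfb3 and Pfkfb4, which set the level of an activator of phosphofructokinase, went apart in WT: Pfkfb3 fell by 1.00 and Pfkfb4 rose by 0.78 (adjusted p = 2.86e-05 and 0.000415).

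Mitochondrial members differed between lines. Bnip3 (ENSMUSG00000078566, chr7:138890836-138909519), a receptor that brings mitochondria to autophagy, had 145 and 148 CPM in WT, 126 and 128 in N22 and 22.0 and 21.7 in KO22 with DMSO, and 31.8 and 31.3, 28.9 and 27.6, and 25.5 and 29.3 with GSK-3484862 in the same order. The 4 DMSO libraries of WT and N22 stand far above the other 8. Bnip3 fell by 2.28 ± 0.06 in WT (adjusted p = 2.05e-42) and by 2.21 ± 0.06 in N22 (adjusted p = 2.87e-41), and rose by 0.32 ± 0.072 in KO22 (adjusted p = 0.000209). Ndufa4l2 (ENSMUSG00000040280, chr10:127514939-127517152), a HIF target related to a respiratory chain subunit, had 26.8 and 26.8 CPM in WT, 26.4 and 24.4 in N22 and 1.56 and 2.79 in KO22 with DMSO, and 3.46 and 3.42, 3.04 and 1.80, and 0.92 and 1.99 with GSK-3484862 in the same order. The same 4 libraries stand above the rest, with untested differences of -3.02, -3.45 and -0.59 in WT, N22 and KO22. The KO22 value rests on few counts and lies between -1.26 and -0.10 when 1 library is left out. Bnip3l and Higd1a fell in all lines by 0.20 to 0.76. Fam162a rose in WT and KO22, and the adenylate kinase gene Ak4 was called in no line, with differences between -0.012 and 0.0089.

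Of the 4 tested collagen-modifying genes, 3 fell in WT and N22, where 20.3% of all genes tested fell in both. The prolyl 4-hydroxylase gene P4ha1 fell by 1.43 and 1.49, P4ha2 by 0.67 and 0.60, and the lysyl hydroxylase gene Plod1 by 0.90 and 0.94. The related Plod2 (ENSMUSG00000032374, chr9:92542223-92608428) rose by 0.58 ± 0.06 in WT, by 0.71 ± 0.06 in N22 and by 1.37 ± 0.065 in KO22 (largest adjusted p = 3.03e-13). Loxl2 (ENSMUSG00000034205, chr14:69609068-69695834), a lysyl oxidase, had 7.29 and 6.59 CPM in WT, 7.86 and 7.49 in N22 and 1.67 and 2.43 in KO22 with DMSO, and 0.88 and 1.14, 0.418 and 0.818, and 0.487 and 0.367 with GSK-3484862 in the same order, with untested differences of -2.83, -3.65 and -2.27. Every GSK-3484862 library lies below every DMSO library for Loxl2, KO22 included.

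The carbonic anhydrases, which control pH at the cell surface, rest on few counts. Car9, a classic HIF target, had 2.20 and 1.70 CPM in WT, 1.09 and 1.58 in N22 and 1.61 and 1.29 in KO22 with DMSO, and 0.825 and 0.651, 0.477 and 0.927, and 0.596 and 0.682 with GSK-3484862 in the same order. It fell by 1.46 ± 0.41 in WT (adjusted p = 0.00166) and by 1.18 ± 0.43 in KO22 (adjusted p = 0.0203), while N22 was not called (-0.96 ± 0.43, adjusted p = 0.0579). The KO22 call is lost with DESeq2 and without KO22 DMSO replicate 1 or either KO22 GSK-3484862 library (adjusted p up to 0.121). Car12 had 3.36 and 2.68 CPM in WT, 2.29 and 2.96 in N22 and 0.167 and 0.259 in KO22 with DMSO, and 2.04 and 1.41, 2.98 and 1.36, and 0.65 and 1.47 with GSK-3484862 in the same order. It rose in KO22 by 2.26 ± 0.57 (adjusted p = 0.000735), from the lowest level of the set, and this call is lost without KO22 GSK-3484862 replicate 2 (adjusted p = 0.0797). Its fall of 0.87 ± 0.33 in WT (adjusted p = 0.0198) is lost with DESeq2 and without WT DMSO replicate 1 or WT GSK-3484862 replicate 2 (adjusted p of 0.151 to 0.188).

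Of the 3 secreted members, Vegfa and Stc2 fell in every line, beside 12.4% of all genes. Vegfa, the main growth factor of blood vessels, had 103 and 98.4 CPM in WT, 92.8 and 97.5 in N22 and 78.7 and 66.6 in KO22 with DMSO, and 44.7 and 47.8, 32.5 and 36.0, and 30.5 and 37.5 with GSK-3484862 in the same order. GSK-3484862 and DMSO libraries do not overlap in any line, and it fell by 1.18 ± 0.08 in WT, 1.52 ± 0.08 in N22 and 1.10 ± 0.08 in KO22 (largest adjusted p = 2.82e-10). Stc2, stanniocalcin 2, had 78.1 and 79.9 CPM in WT, 98.3 and 99.4 in N22 and 58.4 and 62.9 in KO22 with DMSO, and 43.5 and 40.5, 45.05 and 42.2, and 30.2 and 27.5 with GSK-3484862 in the same order, and fell by 0.97, 1.23 and 1.08. Neither gene's fall differed between KO22 and WT beyond the threshold of the interaction test given further on. Adm, the adrenomedullin precursor, had 30 counts over both WT DMSO libraries and 8 over both with GSK-3484862, a ratio of 3.57 in CPM with an exact 95% interval of 1.60 to 9 that covers counting error only. In N22 it had 62 and 9 counts, a ratio of 6.49 (3.21 to 14.9). KO22 had 2 counts with DMSO and 4 with GSK-3484862, for which no fold is given.

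Among nuclear and stress genes, Bhlhe40 (ENSMUSG00000030103, chr6:108660629-108666925), a transcriptional repressor induced by HIF, had 73.0 and 80.2 CPM in WT, 54.8 and 51.5 in N22 and 9.74 and 8.85 in KO22 with DMSO, and 9.73 and 10.0, 8.89 and 10.2, and 10.1 and 12.2 with GSK-3484862 in the same order. The DMSO libraries of WT and N22 hold at least 51.5 CPM and the 8 others at most 12.2, with untested differences of -3.02, -2.52 and 0.25 in WT, N22 and KO22, the last between 0.11 and 0.38 when 1 library is left out. Ddit4 (ENSMUSG00000020108, chr10:59949675-59951770), which restrains the growth kinase mTOR, had 279.8 and 283 CPM in WT, 206 and 196 in N22 and 62.4 and 59.9 in KO22 with DMSO, and 146 and 153, 150.1 and 149, and 106 and 110.5 with GSK-3484862 in the same order. It fell by 0.98 ± 0.04 in WT (adjusted p = 1.42e-30) and 0.48 ± 0.04 in N22 (adjusted p = 2.96e-15) and rose by 0.82 ± 0.047 in KO22 (adjusted p = 4.73e-24). Mxi1, an antagonist of MYC, fell in all 3 lines by 0.43 to 0.80. The histone demethylase gene Kdm3a rose in WT by 0.25 and in N22 by 0.15. Ankrd37 fell by 1.10 in WT and 1.31 in N22, at low levels of 1.36 to 5.04 CPM over the 12 libraries.

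**Figure D3:**
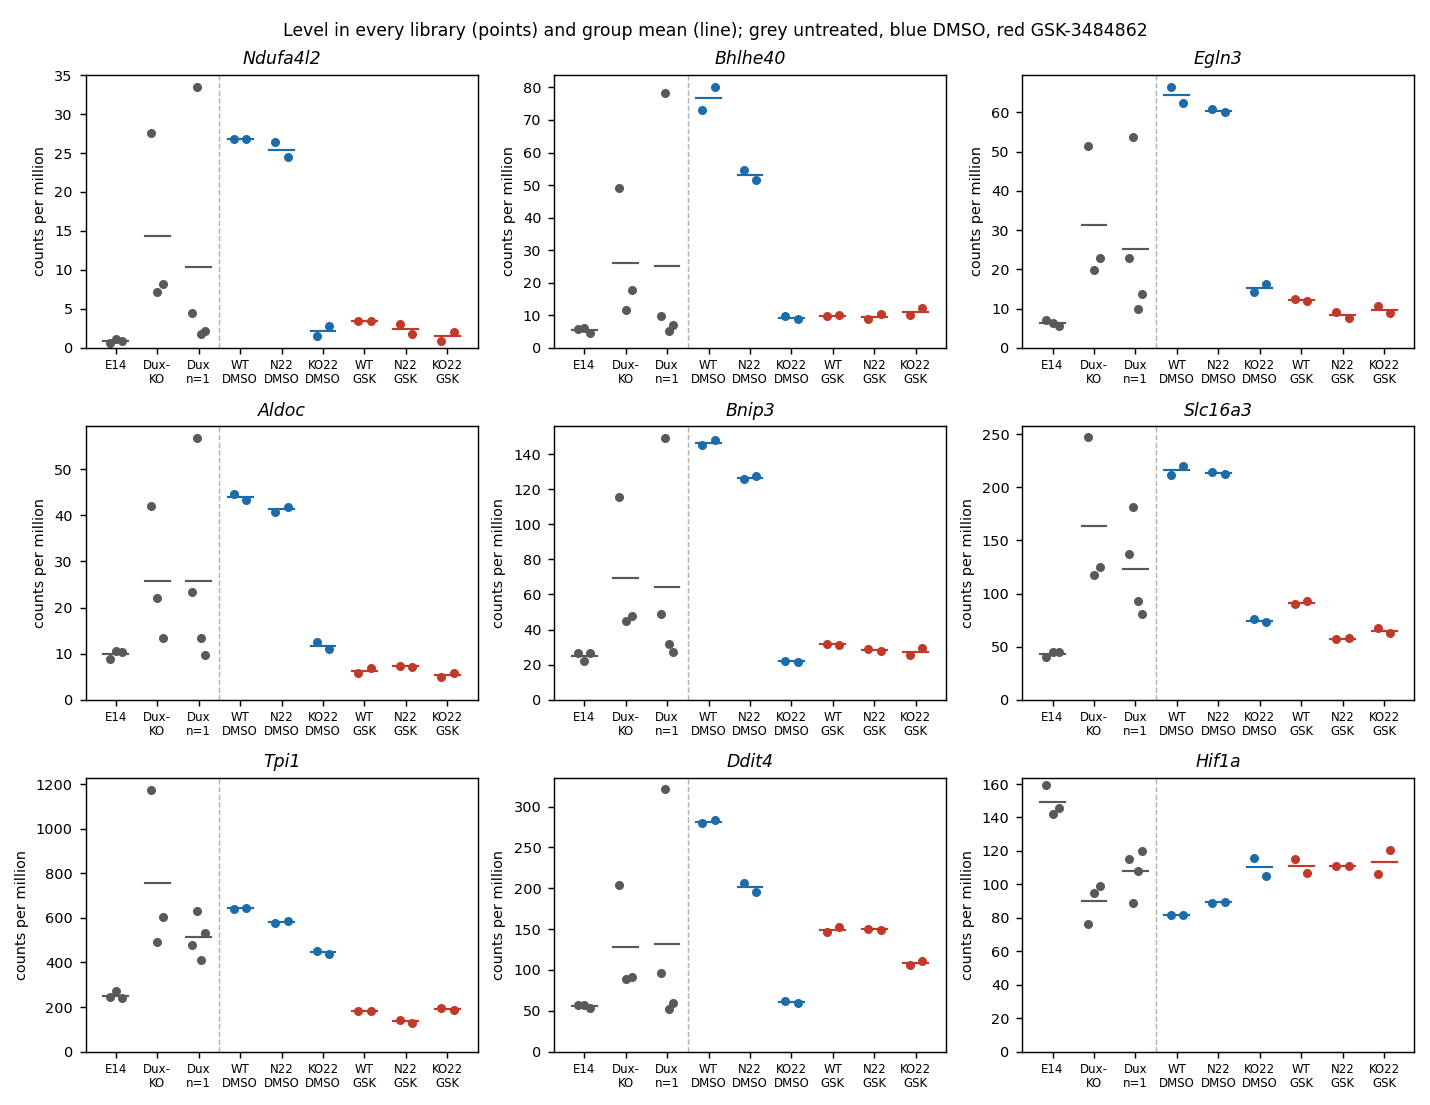
Level in CPM of 9 of the genes in every library (points) with the group mean (line), from 0 upward, for the untreated groups (grey), the DMSO groups (blue) and the GSK-3484862 groups (red). For Bnip3 the WT and N22 DMSO points lie at 126 CPM or higher, while KO22 DMSO and all red points lie at 31.8 CPM or lower, and in the Dux n=1 group clone 22 stands far above the other 3 clones for Ndufa4l2, Bhlhe40 and Ddit4.

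Whether the response itself differed between lines was tested as an interaction, the response of one line minus that of WT. For KO22, 28 of the 39 genes had a higher value than WT (a smaller fall, a rise in place of a fall, or a larger rise) and 4 a lower one, where 18.3% of all genes tested were higher and 13.5% lower. The median of the 39 was 0.52, beside 0.031 over all genes. Bnip3 differed by 2.60 ± 0.095 (adjusted p = 1.56e-33), Ddit4 by 1.79 ± 0.063 (adjusted p = 4.96e-34) and Pgk1 by 0.82 ± 0.043 (adjusted p = 2.62e-25). The 4 lower ones were Hif1a, Epas1, Kdm3a and Gys1, and the call of Gys1 is lost in 4 of 8 omissions of 1 library (WT DMSO, WT GSK-3484862, KO22 DMSO or KO22 GSK-3484862 replicate 1, adjusted p of 0.053 to 0.117). Vegfa, Stc2, Ak4, Eno2, Pfkfb4, Car9 and Ankrd37 were not called. For Vegfa the difference was 0.079 ± 0.12 and for Stc2 -0.11 ± 0.091.

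For N22, 2 genes were higher than WT and 8 lower, where 5.82% of all genes were higher and 5.26% lower, and the median was -0.037 beside 0.014. The falls of Slc16a3 (-0.64 ± 0.069, adjusted p = 8.19e-11) and Pdk1 (-0.34 ± 0.056, adjusted p = 5.72e-06) were larger in N22. That of Ddit4 was smaller (0.50 ± 0.06, adjusted p = 2.67e-09). Epas1, Pfkp, Tpi1, Ldha, Gys1 and Stc2 were also lower, with values between -0.33 and -0.19, and Hk1 was higher by 0.34. Without N22 DMSO replicate 2 the count of lower genes is 5, and the calls of Epas1, Gys1 and Stc2 are lost (lowest adjusted p = 0.0524). Those of Gys1 and Stc2 are also lost in other omissions of 1 library, up to adjusted p values of 0.139 and 0.236. Both interactions share the WT libraries.

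The lines already differed with DMSO. In KO22, 33 of the 39 genes were lower than in WT and 5 higher, where 28.5% of all genes were lower and 23.4% higher, and the median difference was -0.54 beside -0.044. This contrast uses the same DMSO libraries as the responses, so no relation between the contrasts is drawn. Bnip3 differed by -2.76 ± 0.064 (adjusted p = 1.08e-45), Ddit4 by -2.22 ± 0.046 (adjusted p = 1.55e-48), Slc16a3 by -1.55 ± 0.049 and Pgk1 by -0.96 ± 0.03. Adm had 30 counts in WT and 2 in KO22, a ratio of 14.5 with an exact 95% interval of 3.69 to 126. The 5 higher genes were Hif1a (0.42), Epas1 (1.53), Pfkfb4, Gys1 and Kdm3a, and Car9 was not called. The call of Eno2 is lost with DESeq2 and without WT DMSO replicate 2 (adjusted p of 0.0663 and 0.0765). Other levels differed between the same libraries. The fibroblast markers summed to 37.4 to 42.1 CPM in KO22 and 19.1 to 21.5 in WT, with Col3a1, Postn, Twist2, Dcn and Lum at 0 in both. The 8 trophoblast markers summed to 45.9 to 48.5 CPM in KO22 and 111 to 115 in WT, with Elf5 at 0 in both, and the 10 primitive endoderm markers to 422 to 425 and 346 to 350. The part of these markers in the gene differences was not tested.

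In N22 with DMSO, 12 of the 39 genes were lower than in WT and 6 higher, where 13.9% of all genes were lower and 11.5% higher, with a median of -0.075 beside -0.022. Ddit4 (-0.49 ± 0.042) was among the lower ones and Epas1 (0.86 ± 0.061) and Stc2 (0.32 ± 0.058) among the higher ones. With only these groups in the fit, 10 of all 45 genes are higher in place of 6.

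The largest over the smallest of the 3 line means shows how far the lines were apart. It is given over 40 genes, without the 5 known from their fall. These 40 include Adm, which passed the filter through its DMSO libraries alone. With DMSO, Adm had 30 counts in WT, 62 in N22 and 2 in KO22. It is thus among the genes that spanned 2-fold and were lowest in KO22. With DMSO this ratio had a median of 1.49, beside 1.36 over 16390 genes tested with counts in each line, and 13 of the 40 (32.5%) spanned at least 2-fold, against 20% of all. With GSK-3484862 the median was 1.17, beside 1.21 over 16562 genes, and 3 of the 40 (7.5%) spanned 2-fold, against 9.31%. KO22 had the lowest mean of the 3 lines for 34 of 40 genes with DMSO (85%, against 43.4% of all genes) and for 21 with GSK-3484862 (52.5%, against 38.2%). The ratios of these genes and of all genes were both smaller with GSK-3484862 than with DMSO, a description with no test. Markers of other cells were read with the compound too. Of all genes tested, 28.7%, 26.9% and 24.8% rose and 28.1%, 26.0% and 21.2% fell in WT, N22 and KO22. The 10 primitive endoderm markers summed to 342 to 425 CPM with DMSO, where WT had no Foxa2, and to 511 to 586 with GSK-3484862, and 8, 5 and 6 of them rose in WT, N22 and KO22, while 1 fell in each line. The 8 markers of primed cells and germ layers summed to 64.5 to 82.1 CPM with DMSO, where WT had no Fgf5, and to 107 to 130 with GSK-3484862. Of 7 tested, 2, 2 and 4 rose and 0, 1 and 0 fell in WT, N22 and KO22. The trophoblast markers summed to 111 to 115 CPM in WT, 83.1 to 84.8 in N22 and 45.9 to 48.5 in KO22 with DMSO, and to 107 to 125, 119 to 120, and 78.2 to 81 with GSK-3484862. Of 7 tested, 4, 4 and 5 rose, and 1 fell in KO22. Of 9 ES cell markers, 8 fell in WT, 9 in N22 and 8 in KO22. The 8 markers of the 2-cell-like state summed to 4.51 to 5.71 CPM in WT, 2.02 to 3.27 in N22 and 0.501 to 0.517 in KO22 with DMSO, and to 55.6 to 57.4, 26.4 to 28.1, and 3.46 to 4.22 with GSK-3484862. In KO22 with GSK-3484862, Zscan4c, Zfp352, Tcstv1, Tcstv3 and Tmem92 among them were at 0. Their part in the levels of the hypoxia and glycolysis genes was not tested.

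In untreated cells, both kinds of edited clones were compared with E14. Of the 45 genes, 44 passed the filter, all but Adm, which had 1, 0 and 0 counts in E14 (a count of 0 allows up to 0.170 CPM) and reached 2.48 CPM in Dux n=1 clone 22. In Dux-KO, 19 of 44 were higher than in E14 and 1 was lower, where 9.26% of 14796 genes tested were higher and 11.1% lower. In Dux n=1, 14 were higher and 0 lower, where 4.88% of all genes were higher and 4.28% lower. Without the 5 genes known from their fall, the counts are 17 and 1 of 39 and 13 and 0 of 39. All these counts of higher genes include Car9, which was under 10 counts in each E14 library and passed the filter through the edited clones alone. The median differences of the 44 were 0.68 and 0.55, beside 0.018 and 0.009 over all genes, and the 2 comparisons share the E14 libraries. With an offset for GC content per library, 10 were higher and 0 lower in Dux-KO, and 3 and 0 in Dux n=1. Over all genes tested, the offset left 511 higher and 327 lower in Dux-KO, in place of 1370 and 1646. In Dux n=1 it left 161 and 121, in place of 722 and 633. The Dux-KO count of 19 was 8, 12 and 8 without E14 replicates 1, 2 and 3. In these fits, 373, 701 and 442 of all genes tested were higher. The Dux n=1 calls rest on all 3 E14 libraries, since none of the 14 remained at the threshold when any one of them was left out. Without clone 17, 3 members were called higher. Over all genes tested, the 722 higher ones became 16, 165 and 29 without E14 replicates 1, 2 and 3, and 193 without clone 17. The loss of calls is therefore not particular to these members. Between Dux n=1 and Dux-KO, 0 of 44 were called, as were 0 (0%) of all genes with edgeR (856 at an unadjusted p below 0.05) and with DESeq2.

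A pair of clones stood apart within their groups. Dux-KO clone 15 had the highest value of the 10 untreated libraries for 17 of 44 genes and Dux n=1 clone 22 for 19, together 81.8%, against 39.2% of all genes. An E14 library had the lowest value for 30 (68.2%, against 27.8%). The median deviation of the 44 genes from their mean over the 10 libraries was 0.48 in clone 15 and 0.56 in clone 22 on the log2 scale, between -0.42 and -0.37 in E14, and between -0.081 and 0.11 in the other 5 clones. Left out together, an alternative chosen after these values were seen, the 2 clones leave 23 genes higher and 1 lower in Dux-KO, and 20 higher and 3 lower (Hif1a, Bnip3l and Plod2) in Dux n=1. The counts over all genes rose too. Of 14865 genes tested in that fit, 1713 were higher and 1883 lower in Dux-KO, in place of 1370 and 1646. In Dux n=1 they were 1554 and 1774, in place of 722 and 633. The 8 fibroblast markers summed to 9.21 to 10.7 CPM in E14, 21 to 53.7 in Dux-KO and 13.8 to 29.6 in Dux n=1, with Postn, Twist2 and Lum at 0 in all 3 groups, and their part in these differences was not tested.

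Hif1a was the only member lower in Dux-KO. It stood at 159, 142 and 146 CPM in the E14 libraries, 76.6, 94.8 and 98.8 in Dux-KO clones 15, 22 and 52, and 115, 88.6, 108 and 120.1 in Dux n=1 clones 17, 22, 31 and 40. Every edited clone lies below every E14 library, and the differences were -0.77 ± 0.15 in Dux-KO (adjusted p = 0.00745) and -0.50 ± 0.14 in Dux n=1 (adjusted p = 0.0519). The Dux-KO call is lost with the GC offset (adjusted p = 0.511). Epas1 had 72.3, 78.6 and 77.5 CPM in the E14 libraries, 59.9, 108 and 100.1 in Dux-KO clones 15, 22 and 52, and 56.5, 51.4, 98.7 and 114 in Dux n=1 clones 17, 22, 31 and 40. Its edited clones lie on both sides of E14, and neither comparison was called. Egln3 had 7.14, 6.33 and 5.52 CPM in the E14 libraries, 51.4, 19.9 and 22.8 in Dux-KO clones 15, 22 and 52, and 22.9, 53.7, 9.94 and 13.7 in Dux n=1 clones 17, 22, 31 and 40, with every clone above E14. It was higher by 2.25 ± 0.54 in Dux-KO (adjusted p = 0.0155), a call lost without any 1 E14 library, without clone 15 or without the count filter (adjusted p up to 0.0876). In Dux n=1 it was higher by 1.92 ± 0.52 (adjusted p = 0.0423), a call lost with the GC offset, without the count filter, without any 1 E14 library and without clone 17 or clone 22 (adjusted p up to 0.166).

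The genes with the smallest adjusted p against E14 were the enzymes Gys1, Ldha, Tpi1, Aldoa and Hk1 and the exporter Slc16a3. Slc16a3 had 40.2, 45.3 and 44.6 CPM in the E14 libraries, 247, 118 and 125 in Dux-KO clones 15, 22 and 52, and 137, 182, 93.2 and 80.4 in Dux n=1 clones 17, 22, 31 and 40. No edited clone overlaps E14, and it was higher by 1.86 ± 0.30 in Dux-KO (adjusted p = 0.00335) and 1.46 ± 0.29 in Dux n=1 (adjusted p = 0.0152). The second call is lost without the count filter and without any 1 E14 library (adjusted p of 0.0546 to 0.0989). Tpi1 had 244, 269.7 and 240.5 CPM in the E14 libraries, 1175, 491 and 606 in Dux-KO clones 15, 22 and 52, and 477, 631, 413 and 534 in Dux n=1 clones 17, 22, 31 and 40. Clone 15 is far above the next clone, and the lowest clone still lies above the highest E14 library. The differences of Tpi1 were 1.53 ± 0.25 (adjusted p = 0.00327) and 0.99 ± 0.23 (adjusted p = 0.0272), the second lost with the GC offset (adjusted p = 0.0735), without the count filter and without clone 17.

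Hk1 had 38.5, 46.1 and 44.3 CPM in the E14 libraries, 171, 85.8 and 107 in Dux-KO clones 15, 22 and 52, and 109, 165, 80.2 and 81.5 in Dux n=1 clones 17, 22, 31 and 40, with differences of 1.44 and 1.29. Ldha had 999.7, 1018 and 997 CPM in the E14 libraries, 1837, 1544 and 1449 in Dux-KO clones 15, 22 and 52, and 1343, 1632, 1274 and 1311 in Dux n=1 clones 17, 22, 31 and 40, with differences of 0.63 and 0.43, the second lost with the GC offset (adjusted p = 0.0735) and without clone 17. For both enzymes all clones lie above E14. Aldoa had 1070, 1080 and 1063 CPM in the E14 libraries, 2006, 1604 and 1540 in Dux-KO clones 15, 22 and 52, and 1539, 1920, 1475 and 1379 in Dux n=1 clones 17, 22, 31 and 40, and was higher by 0.63 and 0.52, both lost with the GC offset (adjusted p = 0.0813 and 0.132) and the second also without clone 17. Gys1 had 103, 113 and 113 CPM in the E14 libraries, 213, 171 and 194 in Dux-KO clones 15, 22 and 52, and 162, 134, 154 and 164 in Dux n=1 clones 17, 22, 31 and 40, and was higher by 0.76 and 0.45, the second lost with the GC offset (adjusted p = 0.226) and without clone 17, 31 or 40. Clone 22 of Dux n=1, the highest for so many genes, has the lowest Gys1 of the 7 clones.

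The genes known from their fall with GSK-3484862 varied widely between clones. Ndufa4l2 had 0.566, 1.07 and 0.929 CPM in the E14 libraries, 27.6, 7.10 and 8.21 in Dux-KO clones 15, 22 and 52, and 4.42, 33.4, 1.77 and 2.12 in Dux n=1 clones 17, 22, 31 and 40. Dux-KO clone 15 and Dux n=1 clone 22 stand far above every other library, and the Dux-KO difference of 3.98 ± 1.11 (adjusted p = 0.0273) is not called without any 1 E14 library, without clone 15, without the count filter or with the GC offset (adjusted p up to 0.142). Bhlhe40 had 5.72, 6.05 and 4.70 CPM in the E14 libraries, 49.1, 11.5 and 17.9 in Dux-KO clones 15, 22 and 52, and 9.74, 78.2, 5.25 and 6.97 in Dux n=1 clones 17, 22, 31 and 40. The same clones lead, 1 n=1 clone falls among the E14 values, and neither comparison was called (adjusted p = 0.112 and 0.143). Aldoc had 8.78, 10.6 and 10.4 CPM in the E14 libraries, 42.0, 22.1 and 13.3 in Dux-KO clones 15, 22 and 52, and 23.4, 56.7, 13.3 and 9.60 in Dux n=1 clones 17, 22, 31 and 40, with clones 15 and 22 of the same groups highest and no call. Loxl2 had 1.81, 1.30 and 1.64 CPM in the E14 libraries, 10.8, 2.26 and 4.87 in Dux-KO clones 15, 22 and 52, and 3.27, 8.75, 2.47 and 1.70 in Dux n=1 clones 17, 22, 31 and 40, also with no call. For Loxl2 too, Dux-KO clone 15 and Dux n=1 clone 22 had the highest values. Bnip3 had 26.9, 22.2 and 26.4 CPM in the E14 libraries, 116, 44.8 and 48.0 in Dux-KO clones 15, 22 and 52, and 48.7, 149.5, 31.6 and 27.2 in Dux n=1 clones 17, 22, 31 and 40, with differences of 1.40 ± 0.55 and 1.28 ± 0.53 that were not called. Ddit4 was at 56.5, 57.4 and 53.6 CPM in the E14 libraries, 204, 88.4 and 91.1 in Dux-KO clones 15, 22 and 52, and 95.8, 321, 51.5 and 60.0 in Dux n=1 clones 17, 22, 31 and 40, again with clones 15 and 22 on top and no call.

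Among the other members, Pdk1 had 166, 168 and 166 CPM in the E14 libraries, 303, 219 and 246 in Dux-KO clones 15, 22 and 52, and 277, 252, 223 and 247 in Dux n=1 clones 17, 22, 31 and 40. It was higher in Dux-KO by 0.57 ± 0.12 (adjusted p = 0.00745) and in Dux n=1 by 0.54 ± 0.11 (adjusted p = 0.0155), and no clone overlaps E14. Car9, at under 0.44 CPM in E14 and 0.579 to 2.32 in the clones, was under the filter's minimum count of 10 in each E14 library. It passed the filter through the edited clones alone, so its differences of 1.68 and 1.88 are given as values. Both of its calls are lost in several omissions and with the GC offset (adjusted p up to 0.128 and 0.162), and they are not taken as support. Stc2 was higher in Dux-KO by 0.47 (adjusted p = 0.0323), lost with the GC offset and in 5 omissions (adjusted p up to 0.124). Also higher in both kinds of clones were Gpi1, Pfkl, Plod1, Ak4 and Mxi1, by 0.43 to 0.80. Their Dux n=1 calls are all lost with the GC offset and without any 1 E14 library. Slc2a1, Pfkp and Pkm were called in Dux-KO and not in Dux n=1, with no call between the 2 kinds of clones. Hk2, Pfkfb3, Pfkfb4, Fam162a, Higd1a, Bnip3l and Plod2 had differences between -0.20 and 0.31 with no call in either comparison. Kdm3a was at -0.47 and -0.35, and Egln1, Slc2a3, Pgk1, Pgam1, Eno2, P4ha1, P4ha2, Car12, Vegfa and Ankrd37 had differences between 0.19 and 1.29, again with no call.

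**Figure D4:**
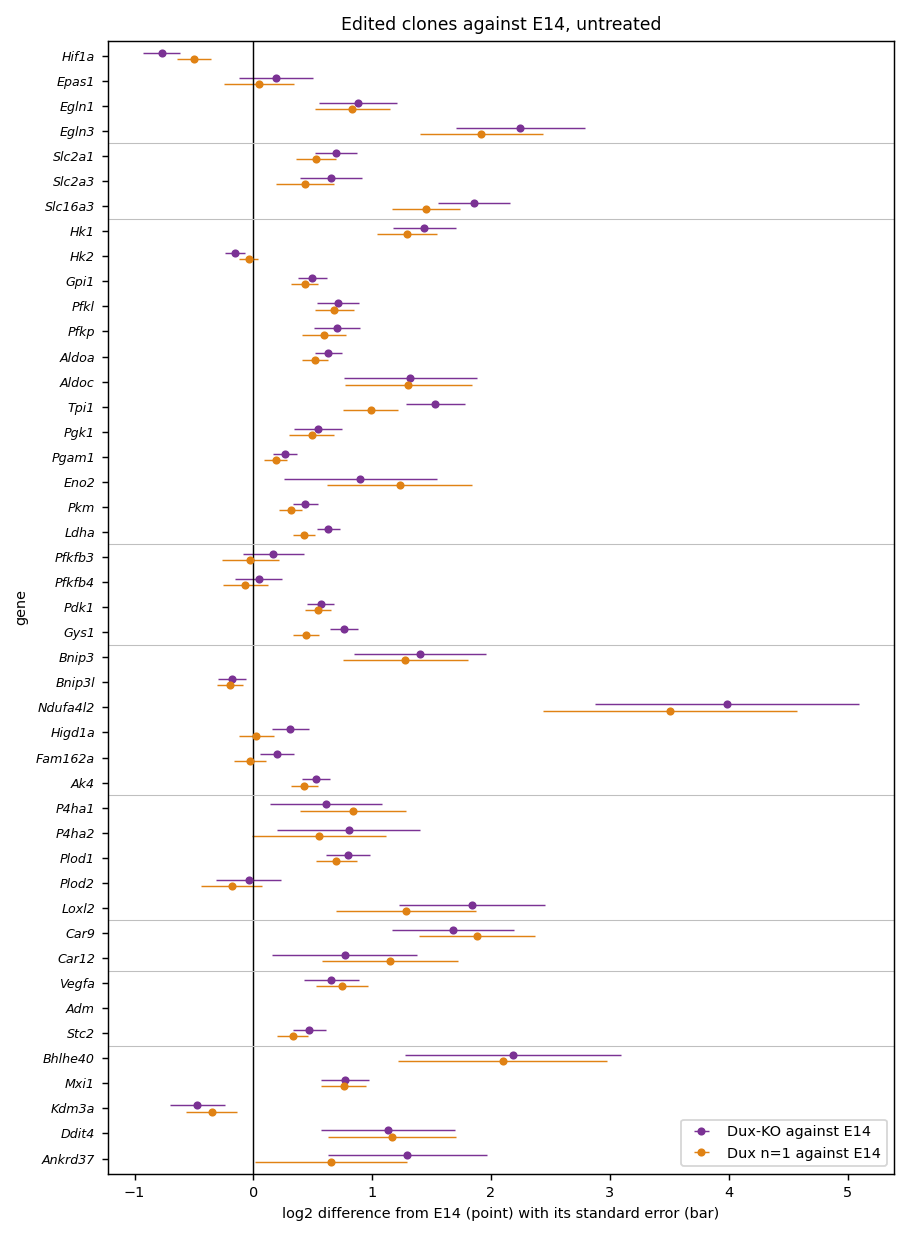
Log2 difference from E14 (x axis) for each gene (y axis, grouped by role), with its standard error, in Dux-KO (purple) and Dux n=1 clones (orange). Adm was not tested. Most points lie to the right of 0, at a median of 0.68 and 0.55, those of Hif1a lie to the left, and the widest bars belong to Ndufa4l2 and Bhlhe40 among the genes shown.

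A further 64 genes of the pathway were read in the same fits, and 60 of them were tested with GSK-3484862. Of all genes tested, 28.1% fell and 28.7% rose in WT, 26.0% and 26.9% in N22, and 21.2% and 24.8% in KO22. Of the 13 genes of the HIF machinery, 4 fell and 4 rose in WT, 5 and 5 in N22, and 2 and 3 in KO22, with medians of -0.031, -0.008 and 0.015. Hif3a, an alpha subunit whose short forms inhibit HIF, changed by -1.10, -0.65 and 0.55 in WT, N22 and KO22. Arnt2, an alternative partner of the alpha subunits, rose by 0.43, 0.74 and 0.51. Cited2, a HIF target that competes with HIF for its coactivators, rose by 0.58 in WT and 0.46 in N22 and fell by 0.39 in KO22.

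The next counts stand beside the same shares of all genes, 28.1%, 26.0% and 21.2% lower and 28.7%, 26.9% and 24.8% higher in WT, N22 and KO22. Of the 18 other glycolysis genes tested, 10 fell and 1 rose in WT, 13 and 2 in N22, and 12 and 2 in KO22, with medians of -0.47, -0.58 and -0.32. The muscle enolase gene Eno3 rose by 1.23, 1.48 and 0.92 in WT, N22 and KO22. Pdk4, a paralogue of Pdk1, fell by 1.63, 0.92 and 1.02, and the muscle phosphofructokinase gene Pfkm fell by 1.06, 1.14 and 0.73. Of 29 other HIF targets, 17 fell and 5 rose in WT, 17 and 5 in N22, and 9 and 6 in KO22, with medians of -0.31, -0.41 and -0.073. Bhlhe41, the paralogue of Bhlhe40, fell by 2.64 in WT and 1.38 in N22 and rose by 2.00 in KO22 (adjusted p = 0.00811). Rora, a nuclear receptor gene, fell by 1.85, 1.30 and 0.94.

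In untreated cells, 9.26% of all genes tested were higher in Dux-KO than in E14 and 11.1% lower. Of 18 other glycolysis genes 4 were higher and 0 lower, of 28 other HIF targets 2 were higher and 5 lower, and of 13 machinery genes 0 were higher and 1 was lower. In Dux n=1, where 4.88% of all genes were higher and 4.28% lower, the counts of lower genes were 0, 3 and 1, and 0 were higher in each list.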

How the data were processed

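RNA-seq libraries of mouse ES cells (22) were analysed from the deposited read counts per gene, 1 table per library. Per the file headers, the authors counted read pairs with featureCounts on the Ensembl 84 annotation, with no flag for multi-mapping or strand, so genes with near-identical copies or overlapping antisense genes are uncertain. Per the submitters' processing notes, fastp 0.23.2, HISAT2 2.1.0, GRCm38, featureCounts 2.0.1 and DESeq2 1.40.2 were used. Counts on identifiers with no symbol made up 0.025% of all.

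The 45 members and all other lists were chosen with earlier results of these data known. Groups come from the labels. The treated libraries (12) and the untreated ones (10) were fitted apart with edgeR 4.0.16 (R 4.3.3), with library factors by TMM, genes kept by filterByExpr at its minimum count of 10, a robust quasi-likelihood fit of all groups of the set and Benjamini-Hochberg adjustment over all genes tested (16641 and 14796). The biological coefficient of variation was 0.0435 in the treated and 0.208 in the untreated set, and libraries of a group differed beyond counting noise (chi-square per degree of freedom of 2.61 to 53.5). Alternatives were DESeq2 1.42.0, RLE factors, no count filter, only the compared groups, a GC offset, a replicate block and the omission of each library.

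Library values were named for the regulators Hif1a and Epas1, the 5 genes known from their fall, the 10 others with the largest mean response, 3 per interaction with the smallest p and 6 with the smallest adjusted p against E14. The heat map used log2(CPM + 0.5), and the plot of single genes shows CPM. Ratios of line means, the order of the untreated libraries and their median deviations used CPM on library sizes scaled by TMM. The median deviations were taken on log2 of this CPM + 0.5. Python 3.11.15, pandas 2.3.3, scipy 1.17.1 and matplotlib 3.10.9 were used. A gene among the other HIF targets is not reported here by name.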

Additional observations from a re-analysis of the deposited data

Results flagged for a closer look

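In the 4 Dux n=1 clones, clone 22 was set apart for 8 of the 45 genes: its gap to the next clone, divided by the range of the 4, was above Dixon's 95% critical value, which chance exceeds in about 1 of 20 groups. In all 8 it was the highest clone. Clone 22 was set apart as the highest for 3.68% of all 14796 genes tested in the untreated set and for 7 of the 44 members tested there, which leaves out Adm. Among the genes of collagen modification, P4ha1 was at 66.1 CPM (others 16.0 to 20.9), P4ha2 at 16.6 CPM (others 3.30 to 4.00) and Plod2 at 61.9 CPM (others 26.9 to 28.1). The repressor Bhlhe40 was at 78.2 CPM (others 5.25 to 9.74) and the mTOR inhibitor Ddit4 at 321 CPM (others 51.5 to 95.8). Ndufa4l2 was at 33.4 CPM (others 1.77 to 4.42), Eno2 at 11.1 CPM (others 1.65 to 2.18) and Adm at 2.48 CPM (others 0.127 to 0.484). Groups of 3 or 2 libraries were not tested in this way.

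The response to GSK-3484862 differed between KO22 and WT for 32 of the 39 members by the interaction test. Of all genes tested, 18.3% were higher and 13.5% lower. Among a regulator and the transporters the response was higher in KO22, by the log2 values in brackets, for Egln1 (1.75), Slc2a1 (0.69), Slc2a3 (0.43) and Slc16a3 (1.10). Among the enzymes it was higher for Hk1 (0.62), Hk2 (0.52), Gpi1 (0.57), Pfkl (0.77), Pfkp (0.31), Aldoa (0.56), Tpi1 (0.66), Pgk1 (0.82), Pgam1 (0.28), Pkm (0.44) and Ldha (0.38). Further values were Pfkfb3 (1.10), Pdk1 (0.41), Bnip3 (2.60), Bnip3l (0.29), Higd1a (0.54) and Fam162a (0.28) for genes of flux and mitochondria. Collagen, pH and nuclear genes had P4ha1 (1.16), P4ha2 (1.01), Plod1 (0.42), Plod2 (0.78), Car12 (3.13), Mxi1 (0.37) and Ddit4 (1.79). It was lower in KO22 for Hif1a (-0.36), Epas1 (-0.76), Gys1 (-0.20) and Kdm3a (-0.26).

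Between N22 and WT the response differed for 10 of the 39 members, where 5.82% of all genes were higher and 5.26% lower. The response was lower in N22 for Epas1 (-0.33), Slc16a3 (-0.64), Pfkp (-0.21), Tpi1 (-0.27), Ldha (-0.19), Pdk1 (-0.34), Gys1 (-0.23) and Stc2 (-0.25). It was higher in N22 for Hk1 (0.34) and Ddit4 (0.50).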

How the results depend on the processing

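In the treated set, settings were compared by counts of members called over 40 genes with GSK-3484862 and over all 45 between lines with DMSO. The 40 include Adm, and the 45 also include the 5 genes known from their fall. These counts are therefore not those given over 39 genes, and they describe the processing only. Those with GSK-3484862 in each line, and of KO22 minus WT, stayed within 1.5 times the count of the same genes in the reported fit. This held under DESeq2, RLE factors, no count filter, only the compared groups, the GC offset, the replicate block and every omission of 1 library. Over these omissions the falls ranged from 31 to 33 in WT, 31 to 32 in N22 and 19 to 23 in KO22. The count of N22 minus WT values called lower was 5 to 8 over omissions, and the count of members higher in N22 than WT with DMSO was 10 with only the compared groups. In Dux-KO against E14, the GC offset gave 10 higher and 0 lower, and omissions gave 8 to 22 higher (8, 12 and 8 without E14 replicates 1, 2 and 3) and 1 to 2 lower. In Dux n=1 against E14, the GC offset gave 3 higher, omissions 0 to 15 (0 without each E14 library, 3 without clone 17), and the count of lower members was 1 with DESeq2, with no count filter and with only the compared groups, and 3 without clones 15 and 22. Over all genes tested, the counts of called genes also fell with the GC offset and without each E14 library. They rose without clones 15 and 22 together. The cause was not tested. Single genes were followed where a gene with named library values was called in the reported fit, or was an untested one of the 5. In all, 1592 values were the same: they kept the call or, if untested, lay within 1 standard error of the reported value. A further 102 lost the call, 28 untested values of the 5 genes known from their fall moved by more than 1 standard error, and none reversed. The treated groups share replicate numbers 1 and 2, but deviations of same-numbered libraries correlated by only -0.0168 to 0.0294 over 16641 genes, so the numbers do not pair them. With the replicate block, the counts were 33 lower and 6 higher in WT, 23 and 7 in KO22, 31 and 4 in N22, 4 and 28 for KO22 minus WT, 8 and 2 for N22 minus WT, and 39 and 5, and 13 and 6, for KO22 and N22 against WT with DMSO, and it changed no count. Depth limits Adm, Car9, Car12, Loxl2 and Ankrd37, which rest on few counts.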
